A study of Homo sapiens with 6 samples.

Results

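The genes described here are TXNIP, its relatives with an arrestin domain (ARRDC1, ARRDC2, ARRDC3 and ARRDC4), the glucose-sensing transcription factor gene MLXIP, the thioredoxin genes TXN and TXNRD1, the glucose transporter gene SLC2A1 and the hexokinase gene HK2. They are 10 of the 23368 genes in the deposited table, taken by symbol. TXNIP was chosen by its measured fall in the comparison of SOX10 with control libraries, and the others for their family or pathway. All values of TXNIP in that comparison are therefore a description with no test, and nothing is supported with them.

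RNA was sequenced from 1205Lu, an established human metastatic melanoma line. Cells of 3 flasks were transiently transfected with pCMV6-SOX10, a plasmid for overexpression of the transcription factor SOX10 (SOX10 libraries). Cells of the other 3 flasks received the empty pCMV6 vector (control libraries). Every flask received 7.8 µg of plasmid with FuGENE 6 and was lysed 24 h later. All flasks had thus been through transfection, and no untransfected flask is among the samples. The share of cells in a flask that took up plasmid was not measured here. The vector's name refers to a viral promoter that acts in most cell types, and all flasks hold the same line.

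TXNIP encodes a protein with an arrestin fold that binds thioredoxin and holds back its reducing activity. It also draws glucose transporters in from the cell surface. Its transcription is among the most glucose-responsive in mammalian cells. MondoA, the product of MLXIP, senses glucose phosphates together with its partner MLX and binds carbohydrate response elements in the promoters of TXNIP and ARRDC4. Uptake by SLC2A1 and phosphorylation by HK2 supply these sugar phosphates, and TXNRD1 keeps thioredoxin reduced.

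Promoter sequences are shown first, because TXNIP and ARRDC4 are the textbook MondoA targets among these genes and HK2 is the only other one here with an E-box match. They come from RefSeq (build GRCh38.p14), which holds 15 promoters of 300 bases for the 10 genes, while the reads were mapped to hg19 per the submitters' processing notes. The TXNIP stretch lies at chr1:145996640-145996739 on the minus strand, from 160 to 61 bases before the transcript start. The ARRDC4 stretch lies at chr15:97960463-97960582 on the plus strand, from 240 to 121 bases before the start. The HK2 stretch lies at chr2:74834960-74835039 on the plus strand, from 210 to 131 bases before the downstream start. Capitals mark matches to the carbohydrate response element (TXNIP), to the E-box CACGTG (ARRDC4 and HK2) and to the CCAAT box (ATTGG or its reverse complement, in TXNIP and ARRDC4).
TXNIP: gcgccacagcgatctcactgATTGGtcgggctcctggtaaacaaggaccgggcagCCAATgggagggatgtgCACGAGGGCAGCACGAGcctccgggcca
ARRDC4: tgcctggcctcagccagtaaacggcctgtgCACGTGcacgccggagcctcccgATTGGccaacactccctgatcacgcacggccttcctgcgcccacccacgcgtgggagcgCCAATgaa
HK2: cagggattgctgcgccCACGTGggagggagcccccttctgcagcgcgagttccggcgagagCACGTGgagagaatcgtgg

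The carbohydrate response element was searched as CACGNG and CNCGNG with 5 bases between them, on both strands. It was found in 1 of the 15 promoters, that of TXNIP, from 88 to 72 bases before the start. Across all 35116 RefSeq promoters of this length 0.501% held a match. The ARRDC4 window held none, and looser or more distant forms of the element were not searched. The TXNIP match lies downstream of both CCAAT boxes, the nearer of which ends 101 bases before the start. An E-box match stood in 2 of the 15 promoters, against 7.26% of all promoters, with 1 copy in ARRDC4 and 2 in the downstream promoter of HK2. This E-box is also a match to the outer part of the longer element, so the searches overlap in their letters. A SOX core (AACAAAG or AACAATG, both strands) stood in 1 of the 15, the upstream promoter of HK2, at its first transcribed bases, against 8.22% of all promoters. The CCAAT box stood in 10 of the 15 and in 34.6% of all promoters. No SOX core lay in the TXNIP windows, which says only that these letters are not there.

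**Figure D1:**
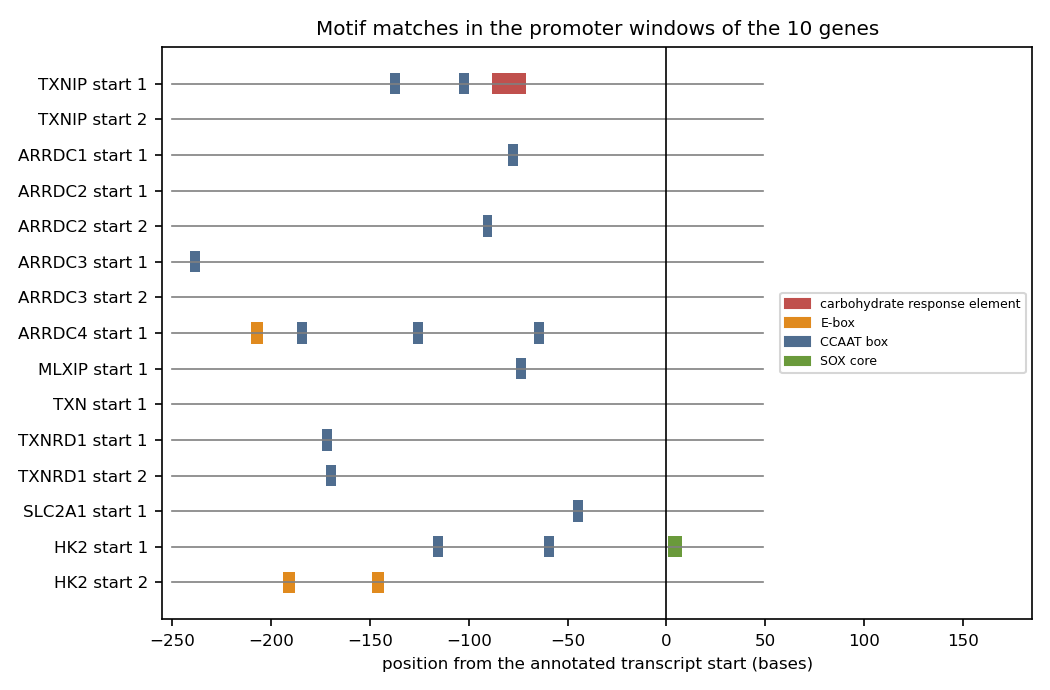
Motif matches in the 15 RefSeq promoter windows of the 10 genes, by position in bases from the annotated transcript start, with 1 line per start. The carbohydrate response element appears in the upstream TXNIP window alone, and E-boxes in ARRDC4 and the downstream HK2 window.

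The libraries were shallow and unequal. Reads assigned to genes numbered 2544420 to 4167393 in the SOX10 libraries and 867917 to 2066520 in the control libraries, and a single read was worth 0.242 to 0.399 CPM (read counts scaled to library size with TMM factors) in SOX10 and 0.488 to 1.15 CPM in control libraries. SOX10 itself had 81, 47 and 143 reads in the libraries labelled SOX10, against 15, 18 and 44 reads in the control libraries. These were 21.7, 18.7 and 34.6 CPM in SOX10 libraries, against 16.6, 20.8 and 21.5 CPM in control libraries. The groups overlapped, and a higher level of SOX10 was not shown (log2 fold change 0.35, SE 0.27, adjusted p 0.927 by edgeR), so the labels could not be checked from this gene. The group names below follow the labels. Melanocyte lineage markers were present in part. S100B averaged 316 ± 38.8 CPM in SOX10 and 307 ± 42.5 CPM in control libraries, and ERBB3 439 ± 87.2 CPM in SOX10 and 444 ± 36.6 CPM in control libraries (SD, n = 3 each), while the pigment genes MLANA, TYR, DCT and TYRP1 had 4 to 9 reads in all. The summed level of 9 lineage markers ran from 735 to 865 CPM in SOX10 and from 746 to 800.5 CPM in control libraries. Most of this sum was S100B and ERBB3. MITF averaged 4.80 CPM in SOX10 and 5.94 CPM in control libraries, and PMEL had 19 reads in all. The keratinocyte (4), leukocyte (4) and endothelial (3) lists each summed to at most 14.0 CPM in every library, and the fibroblast list (3) to 89.7 to 161 CPM in SOX10 and 99.5 to 131 CPM in control libraries. Nearly all of the last was PDGFRA, with LUM at 0 reads. All these ranges overlapped between the groups.

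TXNIP was lower in every SOX10 library than in every control library. It had 249, 182 and 237 reads in the SOX10 libraries, against 97, 119 and 219 reads in the control libraries. On the CPM scale these were 66.7, 72.6 and 57.4 in SOX10 libraries, against 107, 137 and 107 in control libraries. The control libraries spread more widely, with replicate 2 the highest, and the nearest values of the groups were 72.6 and 107 CPM. The means were 65.6 ± 7.66 CPM in SOX10 and 117 ± 17.5 CPM in control libraries (SD, n = 3 each). The fitted log2 fold change was -0.83 (SE 0.15), or 0.563-fold with a 95% interval from 0.456 to 0.694, which makes no allowance for the choice of the gene on this value. In bulk RNA, fewer cells with TXNIP RNA and less of it per cell cannot be told apart.

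Sequencing depth ran with the groups, since each SOX10 library had more assigned reads than each control library. After all libraries were thinned to 867917 reads the log2 fold change of TXNIP was -0.93 (SE 0.18), and the part of depth in it was not otherwise tested. SOX10 replicate 1 had 93.5 reads outside genes per 100 assigned reads, and control replicate 3 had 97.0. All other libraries had 121 to 135. Without those libraries the value was -0.93 (SE 0.18). When single libraries were left out it ran from -0.90 without SOX10 replicate 2 to -0.71 without control replicate 2. These values, too, describe the gene by the contrast that chose it. No exonic base of TXNIP is shared with another gene in GENCODE release 29.

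Among the 10 genes 9 had enough reads for the test (edgeR quasi-likelihood, Benjamini-Hochberg adjusted p under 0.05 over all genes). Of these 1 was called lower, TXNIP itself, and 0 were called higher, against 0.103% of all 10678 tested genes called lower and 0.00937% called higher. Since TXNIP was chosen on this contrast, nothing is read from its call. None of the other 8 passed, and 1 of them, ARRDC3, had an unadjusted p under 0.05, which 6.23% of all tested genes had. DESeq2 also called none of the 8. Their median log2 fold change was -0.091, with 5 below 0 and 3 above, against a median of 0.0076 over all tested genes, of which 48.7% were below 0. In 2 of the 10 genes, TXNIP and ARRDC3, every SOX10 library lay below every control library, as in 6.03% of tested genes. In 0 of the 10 every SOX10 library lay above, as in 5.72% of tested genes.

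**Figure D2:**
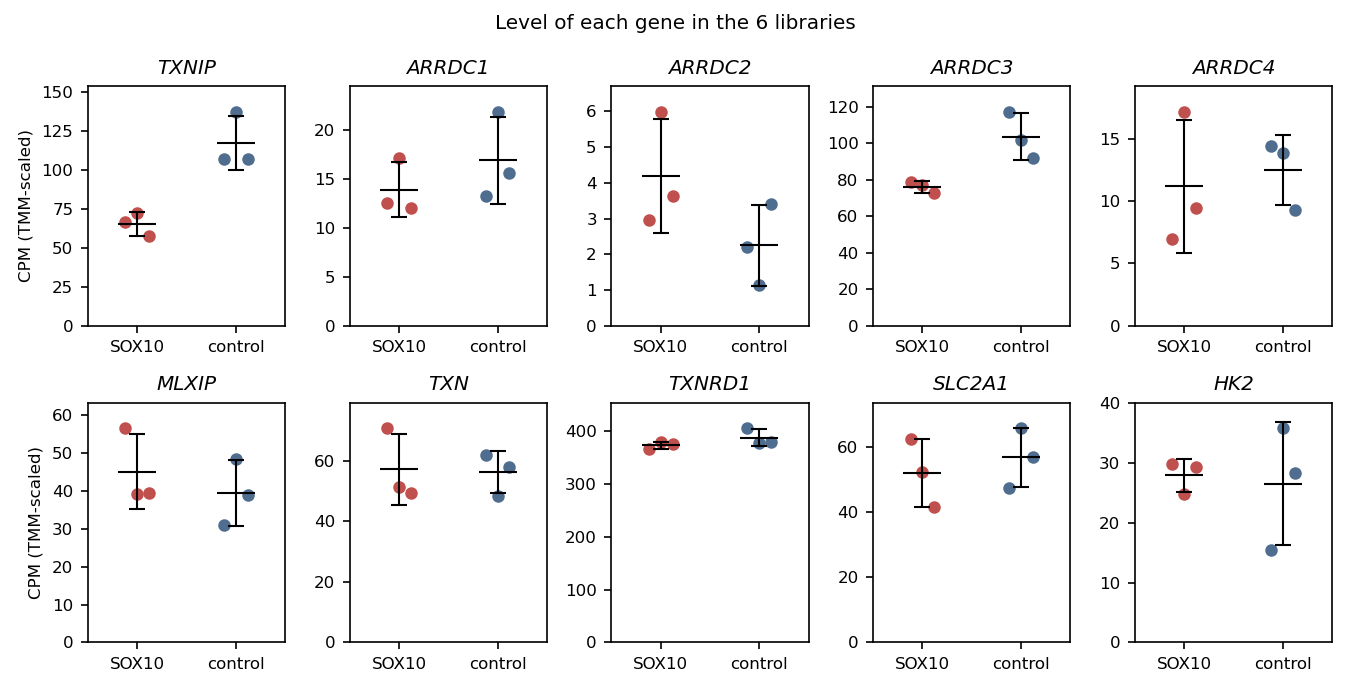
TMM-scaled CPM of the 10 genes in each library (points), with the mean and SD of each group of 3 (bars); each panel has its own axis from 0. TXNIP and ARRDC3 are the genes whose groups do not overlap, and TXNIP lies between 57.4 and 72.6 CPM in SOX10 against 107 to 137 CPM in control libraries.

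The arrestin-domain relatives of TXNIP are adaptors that link membrane receptors and transporters to ubiquitin ligases of the NEDD4 family. ARRDC3, which targets the beta-2 adrenergic receptor and integrin beta-4 for degradation, was the most abundant of them. It had 295, 193 and 300 reads in SOX10 libraries, against 106, 88 and 188 reads in control libraries. These were 79.0, 77.0 and 72.7 CPM in SOX10 libraries, against 117, 102 and 91.7 CPM in control libraries. The groups did not overlap, and the SOX10 libraries lay close together. The log2 fold change of ARRDC3 was -0.42 (SE 0.14, 95% interval from -0.71 to -0.14), and its adjusted p by edgeR over all genes was 0.474. It was below 0 in all 13 alternatives, from -0.56 after thinning to -0.33 without control replicate 1, and passed in none. Of its exonic bases 2.94% overlap ARRDC3-AS1 on the opposite strand, and no source used here states whether the counting used strand.

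ARRDC4, the closest relative of TXNIP in its glucose response, was rare. It had 26, 43 and 39 reads in SOX10 libraries, against 13, 12 and 19 reads in control libraries. On the CPM scale the SOX10 libraries stood at 6.96, 17.2 and 9.45, against 14.4, 13.8 and 9.26 in control libraries. SOX10 replicate 2 was the highest of all and SOX10 replicate 1 the lowest, so the SOX10 group enclosed the control group. The log2 fold change was -0.14 (SE 0.38) with an adjusted p of 0.977, and its 95% interval was wide, from -0.93 to 0.65. The direction turned without SOX10 replicate 1, where the value was 0.12.

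ARRDC1, an adaptor that buds vesicles from the plasma membrane, had 47, 43 and 50 reads in SOX10 and 12, 19 and 32 reads in control libraries. Its means were 13.9 ± 2.78 CPM in SOX10 and 16.9 ± 4.47 CPM in control libraries (SD, n = 3 each), and the groups overlapped. Its log2 fold change was -0.28 (SE 0.30, adjusted p 0.932). ARRDC2, whose own function is less well described, was below the filter on low counts. It had 11, 15 and 15 reads in SOX10 libraries, against 2, 1 and 7 in control libraries, or 4.19 ± 1.59 CPM in SOX10 and 2.26 ± 1.13 CPM in control libraries (SD, n = 3 each). A count of 0 allows up to 3 reads, which is 3.32, 3.46 and 1.46 CPM in the control libraries, so control replicates 1 and 2 lay below it.

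MLXIP, the gene of MondoA, was measured at 211, 98 and 163 reads in SOX10 libraries, against 28, 42 and 80 reads in control libraries. In CPM these were 56.5, 39.1 and 39.5 in SOX10 libraries, against 31.0, 48.4 and 39.0 in control libraries. Only SOX10 replicate 1 lay above all control libraries. MLXIP had a log2 fold change of 0.20 (SE 0.21, adjusted p 0.932), with a 95% interval from -0.23 to 0.63. Without SOX10 replicate 1 it was -0.0020, so the positive sign rested on that library.

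The thioredoxin genes were the most abundant of the 10 per length, and neither passed the test. TXN, the cytosolic thioredoxin that TXNIP binds, had 264, 129 and 204 reads in SOX10 libraries, against 56, 42 and 119 in control libraries. Its means were 57.2 ± 11.7 CPM in SOX10 and 56.1 ± 6.93 CPM in control libraries, with a log2 fold change of 0.023 (SE 0.18, 95% interval from -0.35 to 0.39, adjusted p 0.998). GENCODE release 29 names 7 pseudogenes after TXN. Reads that aligned to more than 1 place were set apart by the authors' counting, so the TXN level may be understated in all libraries.

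TXNRD1, the selenium-containing reductase of thioredoxin, was the best measured of the genes, with 5344 reads in all. It stood at 367, 379 and 375 CPM in SOX10 libraries, against 406, 378 and 380 CPM in control libraries. Control replicate 1 alone lay apart. Its log2 fold change was -0.054 (SE 0.098, adjusted p 0.963), and the 95% interval of the fold ran from 0.838 to 1.11.

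Genes of glucose entry were next. SLC2A1 encodes GLUT1, the transporter that TXNIP helps to internalise. It had 233, 131 and 171 reads in SOX10 libraries, against 43, 57 and 117 reads in control libraries. Its levels were 62.4, 52.3 and 41.4 CPM in SOX10 libraries, against 47.5, 65.7 and 57.1 CPM in control libraries. Both groups spread over about the same range, and the log2 fold change was -0.13 (SE 0.18, 95% interval from -0.51 to 0.25, adjusted p 0.947). HK2, the inducible hexokinase of tumours, had 111, 62 and 121 reads in SOX10 libraries, against 14, 31 and 58 reads in control libraries. In CPM these were 29.7, 24.7 and 29.3 in SOX10 libraries, against 15.5, 35.8 and 28.3 in control libraries. The control libraries held both the lowest and the highest value, and the coefficient of variation was 9.93% in SOX10 and 38.7% in control libraries. HK2 had a log2 fold change of 0.071 (SE 0.24, adjusted p 0.985), which turned to -0.15 without control replicate 1 and to -0.22 after thinning.

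**Figure D3:**
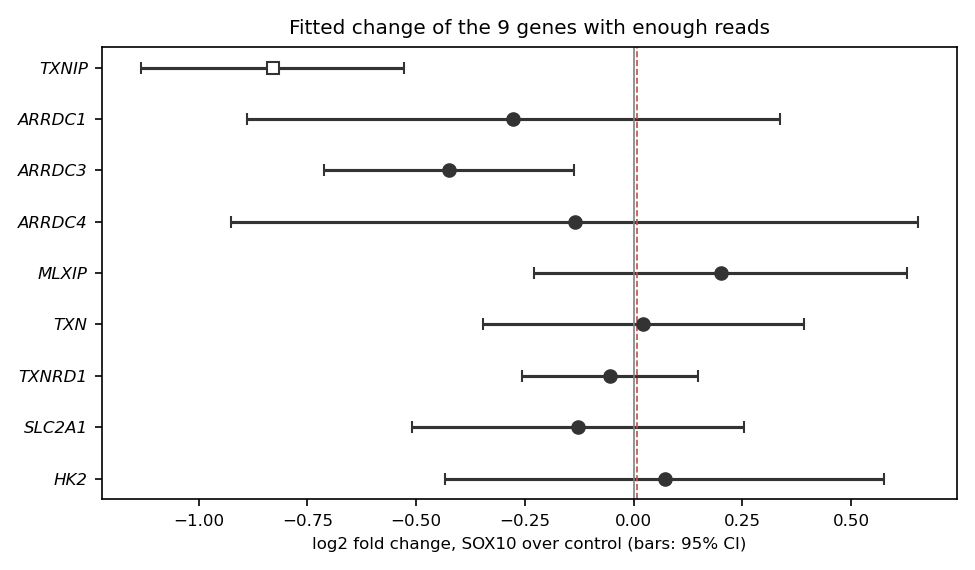
Log2 fold change of SOX10 over control libraries for the 9 genes tested, with 95% intervals from the edgeR fit; the open square is TXNIP, chosen on this value, and the dashed line the median of all tested genes. Beside TXNIP at -0.83, ARRDC3 at -0.42 is the gene whose interval leaves out 0, and its adjusted p of 0.474 does not pass.

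Levels were also compared between the genes, per kilobase of exonic bases in GENCODE release 29. No source used here names the annotation of the counting, and a gene whose annotated exons are mostly unused, as may hold for MLXIP with 13905 exonic bases, comes out low. In SOX10 libraries the order of levels was TXNRD1 (55.7 ± 0.967 CPM per kb), TXN (50.1 ± 10.3), TXNIP (18.1 ± 2.11), ARRDC3 (15.4 ± 0.656), SLC2A1 (11.01 ± 2.22), HK2, ARRDC1, MLXIP, ARRDC4 and ARRDC2. In control libraries it was TXNRD1 (57.9 ± 2.28 CPM per kb), TXN (49.1 ± 6.07), TXNIP (32.3 ± 4.82), ARRDC3 (21.0 ± 2.61), SLC2A1 (12.02 ± 1.93), ARRDC1, HK2, ARRDC4, MLXIP and ARRDC2 (SD, n = 3 in each group). The first 5 places and the last were held by the same genes in each group. TXNIP and ARRDC3, neighbours in the order, overlapped in SOX10 libraries, at 15.8 to 20.03 and 14.7 to 16.0 CPM per kb, and did not overlap in control libraries, at 29.5 to 37.9 and 18.6 to 23.8 CPM per kb. TXNRD1 and TXN overlapped in the SOX10 libraries but not in the controls. HK2, ARRDC1, ARRDC4 and MLXIP all lay between 1.71 and 5.90 CPM per kb, and each overlapped its neighbours among them.

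The balance of TXNIP against its partner and its relatives follows from these levels, and uses the TXNIP values that chose the gene. Per length, TXNIP stood to TXN at ratios of 0.297, 0.444 and 0.366 in SOX10 libraries, against 0.546, 0.893 and 0.580 in control libraries. These groups did not overlap. The ratio of TXNIP to ARRDC3 was 1.15, 1.28 and 1.08 in SOX10 libraries, against 1.25, 1.84 and 1.59 in control libraries, where SOX10 replicate 2 overlapped control replicate 1. Against ARRDC4 it was 10.8, 4.75 and 6.83 in SOX10 libraries and 8.38, 11.1 and 12.9 in control libraries, and the groups overlapped. The ratio of TXN to TXNRD1, which leaves TXNIP out, was 1.13, 0.797 and 0.774 in SOX10 libraries, against 0.896, 0.752 and 0.896 in control libraries, with SOX10 replicate 1 above all control libraries and control replicate 2 below all SOX10 libraries.

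Among 6624 other tested genes with a mean of at least 20 CPM, the genes with a profile nearest to TXNIP over the 6 libraries were TIPARP, RSBN1L, GLIS3, ZNF772 and GGA3. Nearness was the root mean square difference of log2 CPM, each gene centred on its own mean, and was 0.13 for TIPARP and 0.16 for GGA3 on the log2 scale. All 5 were lower in each SOX10 library than in each control library, which follows in part from the choice of TXNIP as a falling gene. Their fold changes and adjusted p-values follow in part from that choice too, so they describe these genes and support nothing. TXNIP and all 5 of these genes had their highest level in control replicate 2, which matching on the profile favours. For GLIS3 this was a near tie, at 29.85 CPM in control replicate 1 and 29.99 CPM in control replicate 2. TIPARP, an ADP-ribosyltransferase, had 305, 323 and 307 CPM in SOX10 libraries, against 577, 787 and 526 CPM in control libraries. TIPARP fell by 1.01 on the log2 scale (SE 0.12, adjusted p 0.000103 by edgeR). The other 4 did not pass. ZNF772, a zinc finger gene, had -0.61 (SE 0.15, adjusted p 0.184), and GLIS3, a transcription factor of pancreatic islets and thyroid, -0.91 (SE 0.26, adjusted p 0.305). GGA3, an adaptor of trafficking from the trans-Golgi network, had -0.55 (SE 0.19) and RSBN1L -0.61 (SE 0.21), with adjusted p-values of 0.526 and 0.514. Of the 10 genes described, ARRDC3 was the nearest to TXNIP at 0.27, in place 79, and SLC2A1 followed at 0.38, in place 830. HK2, at 0.58 in place 5638, was the farthest of those with enough CPM.

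**Figure D4:**
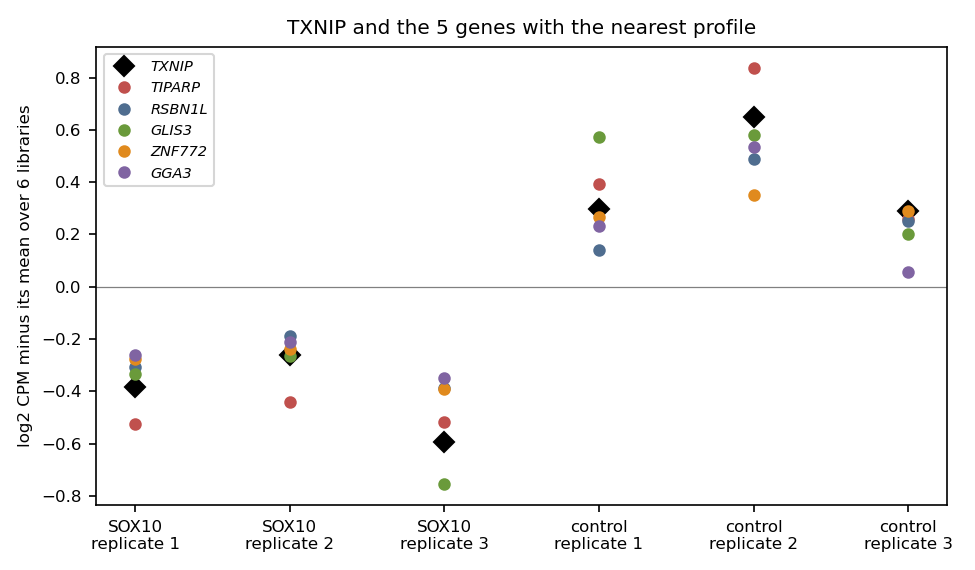
Log2 CPM of TXNIP (diamonds) and of the 5 genes nearest to it (circles), each minus its own mean over the 6 libraries; the horizontal axis gives the library. All 6 genes lie below 0 in the SOX10 libraries and above 0 in the control libraries. All 6 are highest in control replicate 2, where GLIS3 is nearly level with control replicate 1. Both traits follow in part from the choice of genes by nearness to TXNIP.

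The rest of the pathway was described with 6 lists of related genes, 95 in all, of which 70 were tested. Over all genes 0 of the 70 were called lower and 0 higher by edgeR, and 0 by DESeq2, against the shares of all tested genes given above. At an unadjusted p under 0.05 there were 9 of the 70, against 6.23% of all tested genes. The median log2 fold change of the 70 was -0.024. Every SOX10 library lay below every control library in 7 of the 70, against 6.03% of all tested genes, and above in 4, against 5.72%. MXI1 was called higher when no filter on low counts was applied, and no related gene was called in the other 12 alternatives.

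The MLX network holds the partner of MondoA and the factors that compete for MAX at E-boxes. Of its 10 genes 9 were tested, with 6 values below 0 and a median of -0.15. MXI1, a MAX-binding repressor, had the smallest p. It stood at 57.6, 55.8 and 81.9 CPM in SOX10 libraries, against 35.4, 41.5 and 41.9 CPM in control libraries, and its log2 fold change was 0.71 (SE 0.19, adjusted p 0.248 by edgeR). The groups did not overlap, and SOX10 replicate 3 lay apart from its group. MYC, the most abundant, had 92.1, 92.9 and 102 CPM in SOX10 libraries, against 145, 133 and 106 CPM in control libraries (log2 fold change -0.39, SE 0.14, adjusted p 0.526). MLX itself had 0.053 (SE 0.26), and MLXIPL, the gene of ChREBP, was too rare for a test with 15 reads in all.

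Of 12 arrestins and ligases that act with them 9 were tested, with a median of -0.053 and 5 values below 0. ITCH, the ubiquitin ligase that marks TXNIP for degradation, had the smallest p. It averaged 121 ± 3.24 CPM in SOX10 and 148 ± 18.5 CPM in control libraries (SD, n = 3 each), and its fitted value was -0.27 (SE 0.12, adjusted p 0.766). NEDD4, the most abundant, had -0.053 (SE 0.12), and the beta-arrestin genes ARRB1 and ARRB2 had 0.18 (SE 0.51) and 0.0063 (SE 0.25).

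The list of thioredoxin, peroxiredoxin and NRF2 genes was mostly measured, with 24 of 26 tested, 16 values above 0 and a median of 0.045. GSR, which reduces glutathione, had the smallest p at 31.2 ± 3.87 CPM in SOX10 and 20.8 ± 2.77 CPM in control libraries (SD, n = 3 each). Its log2 fold change was 0.55 (SE 0.23) and its adjusted p 0.694. NQO1, an abundant target of NRF2, had -0.0028 (SE 0.098), and the thioredoxin-dependent peroxidase genes PRDX1 and PRDX3 had 0.063 (SE 0.16) and 0.12 (SE 0.12). The mitochondrial thioredoxin gene TXN2 had 0.044 (SE 0.23), so no member of the thioredoxin system passed.

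Other genes of glucose transport and phosphorylation were mostly rare, and 7 of 20 were tested. Their median was -0.21, with 6 values below 0. HK1, the housekeeping hexokinase, averaged 126 ± 22.9 CPM in SOX10 and 146 ± 11.6 CPM in control libraries (SD, n = 3 each), and its fitted value was -0.21 (SE 0.14, adjusted p 0.913). SLC2A13, a proton and inositol symporter, had the smallest p and a value of -0.96 (SE 0.53) on 69 reads in all. SLC2A3, the neuronal glucose transporter GLUT3, had -0.14 (SE 0.33). SLC2A14 is a near copy of it with 11 reads, so reads of the pair are uncertain. The insulin-responsive transporter gene SLC2A4 had 12 reads in all, too few for a test.

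Of 14 TXNIP partners and energy sensors 12 were tested, with a median of -0.082 and 8 values below 0. DDIT4, an inhibitor of mTORC1 that binds TXNIP, had the smallest p. It stood at 32.9, 22.3 and 19.6 CPM in SOX10 libraries, against 33.2, 39.2 and 47.3 CPM in control libraries. SOX10 replicate 1 lay just below control replicate 1, so the groups barely missed each other. DDIT4 had a log2 fold change of -0.71 (SE 0.23, adjusted p 0.472). PRKAA1, a catalytic AMP kinase subunit, had -0.030 (SE 0.10). The inflammasome gene NLRP3 had 18 reads in all and was not tested.

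Hypoxia-inducible genes were listed because SLC2A1 and HK2 are known targets of HIF-1. Of 13 genes 9 were tested, with a median of -0.19 and 8 values below 0. VEGFA, an angiogenic growth factor, had the smallest p, at 28.5 ± 4.30 CPM in SOX10 and 41.3 ± 8.74 CPM in control libraries (SD, n = 3 each), and its fitted value was -0.59 (SE 0.21, adjusted p 0.530). HIF1A, the most abundant gene of all 6 lists, had -0.059 (SE 0.084), and LDHA, the lactate dehydrogenase gene, 0.081 (SE 0.11).

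**Figure D5:**
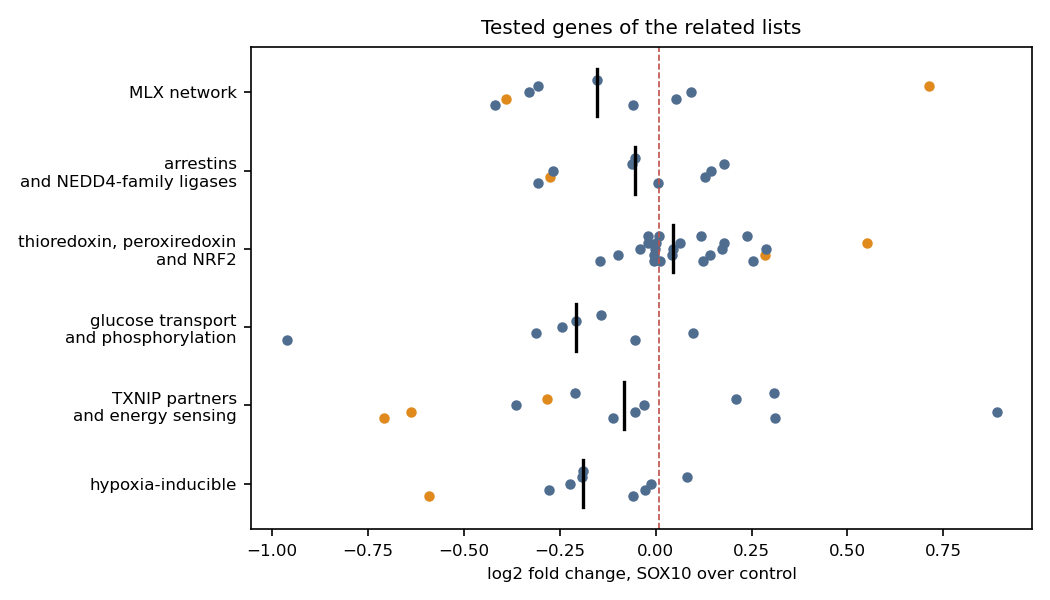
Log2 fold change of SOX10 over control libraries for the 70 tested genes of the 6 related lists (points; orange, unadjusted p under 0.05), with each list's median (black bar) and the median of all tested genes (dashed line). List medians run from -0.21 to 0.045, and no gene passed over all genes.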

How the data were processed

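Per the labels' protocols, the NuGEN Encore Complete system was used on total RNA. TopHat 1.4.0, HTSeq, DESeq and hg19 appear in the submitters' processing notes; no source used here names the annotation or strand setting. The authors deposited raw read counts per gene symbol. The table's last 5 rows name no gene, and neither library sizes nor tests used them: reads outside genes made up 39.4% to 46.9% of counted records, reads with several alignments 17.7% to 19.1% and ambiguous reads 0.435% to 0.551%.

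All 6 libraries were fitted with the quasi-likelihood test of edgeR 4.0.16 (R 4.3.3): TMM scaling, filterByExpr (minimum count 10, minimum total 15), no covariate, Benjamini-Hochberg adjustment over 10678 genes, threshold 0.05. Fitted log2 fold changes are SOX10 over control, with a prior count of 0.125; standard errors come from the F statistic. P-values measure the spread between flasks, which the design text calls biological replicates. The median standard error was 0.23, and the common biological coefficient of variation 12.7%. Floors and intervals cover counting and replicate error only. Replicates differed by more than sampling noise (chi-square per degree of freedom 2.11 to 7.03). The test was checked on simulated data with the same spread for every gene and with planted changes larger than those of the 10 genes. That check does not cover changes of the size measured here.

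The genes, the lists and the alternatives were chosen with earlier results of these data known. Named from each list were called genes, the smallest p and the most abundant gene; further genes of a list (ARRB1, ARRB2, MLX, MLXIPL, PRDX1, PRDX3, TXN2, SLC2A3, SLC2A14, SLC2A4, NLRP3, LDHA) were named for their role after values were seen, and 1 listed gene is not reported here. Profiles used log2 CPM with a prior count of 2. Alternatives were DESeq2 1.42.0 and its size factors, library totals, no low-count filter, the replicate number as a block, thinning, each library left out, and SOX10 replicate 1 with control replicate 3 left out.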

Additional observations from a re-analysis of the deposited data

How the results depend on the processing

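The log2 fold change of TXNIP was below 0 in all 13 alternatives, from -0.93 without SOX10 replicate 1 and control replicate 3 to -0.71 without control replicate 2, and each value lay within 1 SD of the replicates from that of the full fit. The count of the 10 genes called lower was 1 in the full fit, ran from 0 to 1 when single libraries were left out (0 when control replicate 1, control replicate 2 or the third SOX10 library was dropped), and was 0 without SOX10 replicate 1 and control replicate 3. No other of the 10 genes was called in any alternative. Of the related genes 1 was called higher with no low-count filter, a fit that also tested ARRDC2 (log2 fold change 0.71, SE 0.66, adjusted p 0.921 by edgeR). Small values turned sign. When single libraries were left out, log2 fold changes ran from -0.54 to 0.12 for ARRDC4, from -0.0020 to 0.34 for MLXIP, from -0.17 to 0.13 for TXN, from -0.29 to 0.022 for SLC2A1 and from -0.15 to 0.26 for HK2. HK2 was at -0.22 after thinning, and without SOX10 replicate 1 and control replicate 3 MLXIP was at -0.013 and TXN at -0.14. The cause was not tested. With the replicate number as a block TXN was at -0.00079 and TXNIP at -0.84, and 7 genes were called in all, against 12 without it. A pairing of libraries by number was not seen. Deviations from the group means correlated at -0.051, -0.080 and -0.29 between libraries of the same number over 6625 genes. No SOX10 library correlated best with the control of its own number. SOX10 replicate 1 correlated best with control 3 (0.32), SOX10 replicate 2 with control 1 (0.13) and SOX10 replicate 3 with control 2 (0.31). Deviations within a group depend on one another, so these values cannot show whether flasks of the same number were handled together. ARRDC2, ARRDC4 and ARRDC1 had the fewest reads, with 51, 152 and 203 in all.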
